A study of Homo sapiens with 36 samples.

Results

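The genes described here are the 6 human enzymes that write or oxidise DNA methylation: TET1, TET2 and TET3, and DNMT1, DNMT3A and DNMT3B. The question was where TET1 protein itself was found near these genes, by chromatin immunoprecipitation and sequencing (ChIP-seq). A peak, a stretch where pulled-down DNA exceeded the control background, was counted when it came within 20 kb of a gene body on the human build hg19. By this rule 21 of the 62066 peaks in all 6 deposited lists were members: 9 of 28450 in the siNC list, 12 of 32749 in the siCHD5 list, and 0 in each of the other 4 lists. All material was HEK293T, a line derived from human embryonic kidney that expresses SV40 large T antigen, transfected with 1 of 6 small interfering RNAs (siRNAs). siNC was taken as the control, since the other siRNAs carry the names of genes. siCHD3, siCHD4 and siCHD5 are named for ATPases of NuRD, a complex that moves nucleosomes and removes histone acetyl groups, and siMBD2 and siMBD3 for its methyl-CpG-binding domain subunits. Each siRNA had 3 pull-down and 3 input libraries, and 1 peak list for the 3 pull-down replicates together. No replicate error exists for any value below, no difference between lists was tested, and the levels of the 6 enzymes and of the siRNA targets were not analysed here.

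DNA methyltransferases add a methyl group to cytosine in CpG dinucleotides. DNMT1 copies the methylation pattern onto newly replicated DNA, while DNMT3A and DNMT3B set methylation at unmethylated sites. TET enzymes oxidise 5-methylcytosine, which leads to its removal by dilution or base excision repair. TET1 and TET3 carry a CXXC domain, which binds unmethylated CpG. TET2 lacks one, and the gene for its separated CXXC partner, CXXC4, lies on the 5′ side of TET2 on the same chromosome.

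Because CpG is the substrate of these enzymes and the letter pair bound by the CXXC domain, the CpG content of the genes' own start regions is shown first. RefSeq gives 15 start windows for the 6 genes on GRCh38.p14, each reaching from 250 bases before to 50 bases after a transcription start. CpG counts over these 300 bases ran from 3 to 46. The median over all 35116 RefSeq start windows was 14. The 3 windows below are the most upstream one listed for TET1, the only one listed for DNMT1, and the only one listed for DNMT3B, with each CpG in capitals and all read in the direction of transcription.
TET1, GRCh38.p14 chr10:68560087-68560386, plus strand: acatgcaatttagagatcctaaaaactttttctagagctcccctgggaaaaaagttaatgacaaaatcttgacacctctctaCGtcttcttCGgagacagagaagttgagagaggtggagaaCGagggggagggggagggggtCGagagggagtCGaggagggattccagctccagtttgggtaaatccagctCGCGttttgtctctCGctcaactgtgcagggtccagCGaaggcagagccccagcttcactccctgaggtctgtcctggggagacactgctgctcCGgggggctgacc
DNMT1, GRCh38.p14 chr19:10194904-10195203, minus strand: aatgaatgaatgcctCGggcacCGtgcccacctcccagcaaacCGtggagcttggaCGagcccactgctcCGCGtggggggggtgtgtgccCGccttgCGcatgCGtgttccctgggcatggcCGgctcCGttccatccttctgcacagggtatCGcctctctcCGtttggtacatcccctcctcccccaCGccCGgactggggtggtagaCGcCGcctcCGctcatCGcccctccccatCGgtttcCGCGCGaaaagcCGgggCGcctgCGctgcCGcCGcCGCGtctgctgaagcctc
DNMT3B, GRCh38.p14 chr20:32779602-32779901, plus strand: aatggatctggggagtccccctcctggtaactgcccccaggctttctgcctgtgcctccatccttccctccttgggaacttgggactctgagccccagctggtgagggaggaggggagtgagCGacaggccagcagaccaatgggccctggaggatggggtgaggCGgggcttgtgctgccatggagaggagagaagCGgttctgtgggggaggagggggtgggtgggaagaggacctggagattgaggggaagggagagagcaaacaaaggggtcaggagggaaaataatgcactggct

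The TET1 window held 10 CpGs, and 56.4% of all start windows held at least as many. DNMT1 had 30 CpGs, a count reached by 22.4% of windows. The DNMT3B window held 3, which 81.8% of windows reached. The most CpG-rich windows among the members were a DNMT3A start with 46 CpGs (2.89% of windows had as many) and the most upstream TET3 start with 45 (3.48%). TET2 had a window with 13 CpGs and, 1.00 kb downstream, another with 35. These windows belong to another build than the peaks and were not placed on hg19, so the distance of a peak from them is not given. Whether the single DNMT3B window lies at the 5′ end of the gene body used or further along the gene was not determined. Sequence under the peaks was not analysed here.

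No list held a TET1 peak within 2 kb of the 5′ end of any of the 6 gene bodies. The chromosomes of these genes held 0.742 to 1.80 siNC peaks and 0.834 to 2.12 siCHD5 peaks per 100 kb. At such densities stretches this short would seldom hold a peak, so the count of 0 was not read as a result about the 6 genes. The share over all gene starts was not computed. The 5′ ends are the outer ends of gene bodies rounded to 1 kb, so the count of 0 says nothing of starts further along a gene. On GRCh38 the outermost listed starts lie 40.1 kb apart in TET1, 90.5 kb apart in DNMT3A, 17.8 kb apart in TET3 and 1.00 kb apart in TET2. siCHD5 alone had a peak inside the TET1 body, with its summit 40.4 kb from the 5′ end on hg19. The builds were not aligned, so whether that peak, or any other in a gene body, lies at a listed start was not determined. The TET3 body used spans 62 kb and may begin downstream of both listed TET3 starts, and whether its window reaches either was not determined. The 5′ end, body and distances of TET3 therefore refer to that body alone. The closest summit, the base of highest enrichment within a peak, lay 4.75 kb upstream of TET2. Of the 9 siNC summits, 3 lay in a gene body, 3 on the 5′ side and 3 on the 3′ side. The 12 siCHD5 summits were spread as 4, 4 and 4. Whether a peak falls in an exon, an intron or a neighbouring gene was not assigned, since the annotation used for gene names is of another build.

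**Figure D1:**
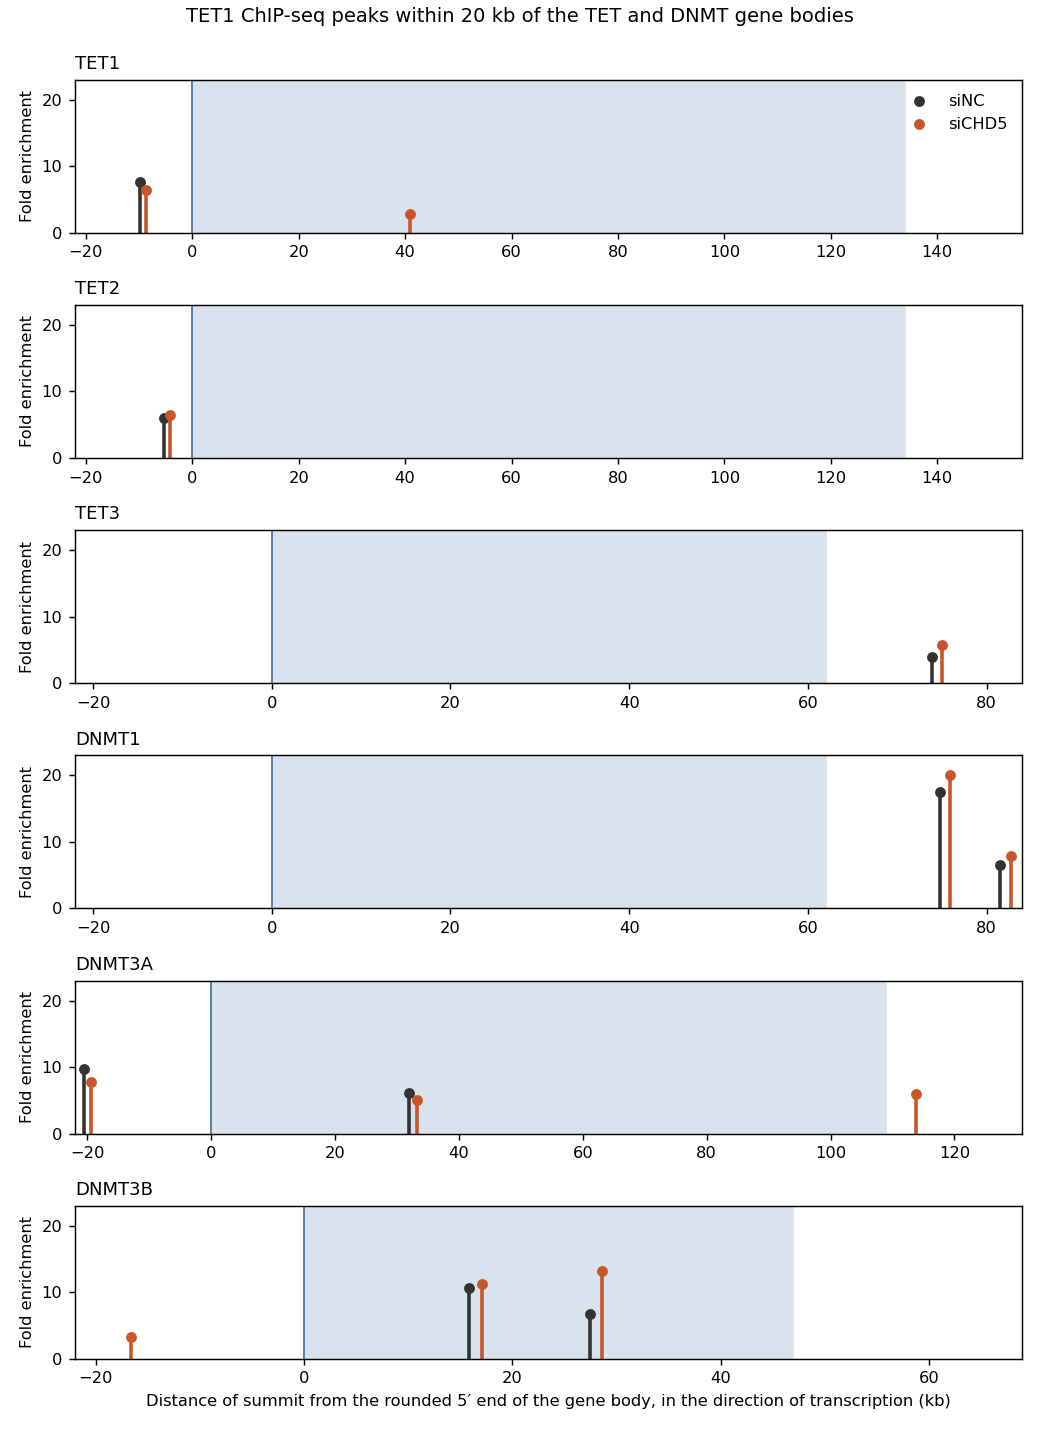
Fold enrichment of each TET1 peak (vertical axis, the authors' value in its own list) against the distance of its summit from the rounded 5′ end of the gene body in kb (horizontal axis), 1 panel per gene, with siNC in black and siCHD5 in orange drawn side by side with a small offset. Shading marks the gene body. siNC summits stood in the shaded body only in DNMT3A and DNMT3B, and no summit of either list stood within 2 kb of the blue line at the 5′ end; the other 4 lists had no peak to draw.

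Each TET gene had 1 siNC peak, outside its body. At the TET1 gene (body chr10:70320000-70454000, plus strand, gene ID 80312) the siNC peak was chr10:70310562-70310911, with its summit 9.26 kb upstream of the 5′ end. Fold enrichment is the authors' summit value of pull-down over control background, read here as having 1 added to both before division. At this site it was 7.67 in siNC (95% counting interval 5.48 to 10.4). The siCHD5 peak at the same site, chr10:70310595-70310813, had 6.36 (4.63 to 8.55). These intervals cover only the counting error of the pull-down reads over the summit, 38 in siNC and 42 in siCHD5, as recovered from the deposited fold and p-value. The site stood near the middle of each list: 61.6% of siNC peaks and 43.4% of siCHD5 peaks had a lower fold. The TET1 body held no siNC peak. The siCHD5 peak inside it, chr10:70360242-70360456, had a fold of 2.76 (1.65 to 4.39) and a −log10 q of 2.04. Only 2.23% of siCHD5 peaks had a lower fold, so it ranked among the weakest of its list.

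TET2, the TET enzyme without a CXXC domain (body chr4:106067000-106201000, plus strand, gene ID 54790), had 1 site in both lists and none in its body. The siNC peak chr4:106062124-106062413 had its summit 4.75 kb upstream of the 5′ end and a fold of 6.02 (4.34 to 8.14). In siCHD5 the peak was chr4:106062107-106062387, with a fold of 6.45 (4.87 to 8.37). The summits were 3 bp apart. Its fold exceeded 40.3% of siNC peaks and 44.3% of siCHD5 peaks.

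TET3 (body chr2:74273000-74335000, plus strand, gene ID 200424) carried its single site on the other side, beyond the 3′ end of the body. The siNC peak chr2:74347429-74347660 had its summit 12.5 kb past the 3′ end and a fold of 3.99 (2.54 to 5.999). It was the weakest of the 9 siNC members, above 12.7% of its list. The siCHD5 peak chr2:74347353-74347692 had a fold of 5.78 (3.68 to 8.70), above 35.5% of its list. Both folds came from 21 pull-down reads, over a control background of 4.52 in siNC and 2.80 in siCHD5. The TET3 summits were 81 bp apart in the lists, the widest separation among the 9 shared sites. The next protein-coding gene on this side in the RefSeq order is BOLA3, which serves iron-sulphur protein maturation in mitochondria.

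The 3 DNMT genes held more of the peaks: 6 of the 9 in siNC and 8 of the 12 in siCHD5, in 338 kb of window against 450 kb for the TET genes. At the peak density of their chromosomes the DNMT windows would hold 4.04 siNC and 4.73 siCHD5 peaks. The TET windows would hold 4.06 and 4.64. The difference between the families was not tested. The strongest member of all lay near DNMT1, the maintenance methyltransferase (body chr19:10244000-10306000, minus strand, gene ID 1786). Its siNC peak, chr19:10230436-10230805, had a fold of 17.4 (13.4 to 22.4) from 60 pull-down reads over a control background of 2.497. In siCHD5 the peak was chr19:10230455-10230850, with a fold of 19.98 (15.8 to 24.98) from 75 reads over 2.80. Both backgrounds were the lowest among the members of their list. In siCHD5 the same background also stood at the TET3 peak and at the DNMT3B peak 16.4 kb from the 5′ end, so it may not be local to DNMT1. The strongest DNMT1 site ranked above 98.8% of siNC peaks and 99.3% of siCHD5 peaks. The summits lay 13.4 and 13.3 kb past the 3′ end of the DNMT1 body, towards EIF3G, which encodes a subunit of translation initiation factor eIF3, and P2RY11, a receptor for extracellular ATP. A second DNMT1 site further out, chr19:10223765-10224028 in siNC and chr19:10223715-10224038 in siCHD5, had folds of 6.58 (4.23 to 9.81) and 7.89 (5.37 to 11.2). It entered the window by 29 and 39 bp only. The DNMT1 body itself held no peak in any list.

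DNMT3A, a de novo methyltransferase (body chr2:25456000-25565000, minus strand, gene ID 1788), had 1 site inside its body in both lists. The siNC peak chr2:25532328-25532672, 32.6 kb from the 5′ end, had a fold of 6.08 (4.27 to 8.43). The siCHD5 peak chr2:25532337-25532571 had 5.00 (3.52 to 6.90). A stronger site lay on the 5′ side, towards DTNB, at the edge of the window. There the siNC peak chr2:25584708-25585101 had a fold of 9.65 (7.10 to 12.8), above 79.8% of its list. The siCHD5 peak chr2:25584841-25585161 had 7.79 (5.84 to 10.2), above 59.4% of its list. siCHD5 alone had a peak 4.16 kb past the 3′ end, chr2:25451686-25451963, with a fold of 5.88 (4.001 to 8.36) and a −log10 q of 12.8. On that side the next protein-coding gene in the RefSeq order is POMC, the precursor of several peptide hormones.

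DNMT3B, the other de novo methyltransferase (body chr20:31350000-31397000, plus strand, gene ID 1789), was the only member with more than 1 siNC peak in its body. The first, chr20:31366267-31366572 in siNC and chr20:31366309-31366567 in siCHD5, lay 16.4 kb from the 5′ end, with folds of 10.7 (7.66 to 14.6) and 11.3 (8.22 to 15.2). It ranked above 86.0% of siNC and 85.0% of siCHD5 peaks. The second, chr20:31377901-31378195 in siNC and chr20:31377785-31378172 in siCHD5, lay 28.0 kb from the 5′ end. Here the fold was 6.69 (4.84 to 9.01) in siNC, from 41 reads over a background of 5.28, and 13.2 (9.92 to 17.1) in siCHD5, from 53 reads over 3.10. The site ranked above 49.4% of siNC and 92.0% of siCHD5 peaks. A siCHD5 peak without a siNC partner lay on the 5′ side, towards COMMD7: chr20:31332649-31332869, 17.2 kb upstream, with a fold of 3.23 (1.99 to 5.01) above only 6.72% of its list.

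The second DNMT3B site was the only shared member whose counting intervals did not overlap between siNC and siCHD5; at the other 8 they did. Over all 24290 siNC peaks with a siCHD5 partner and recovered reads, 2225 (9.16%) had intervals that did not overlap, and in 1654 (6.81%) siCHD5 was the higher. A count of 1 in 9 is close to that background and was not read as a change at DNMT3B. Folds are scaled within each list, and the intervals leave out the error of the control and of replicates.

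**Figure D2:**
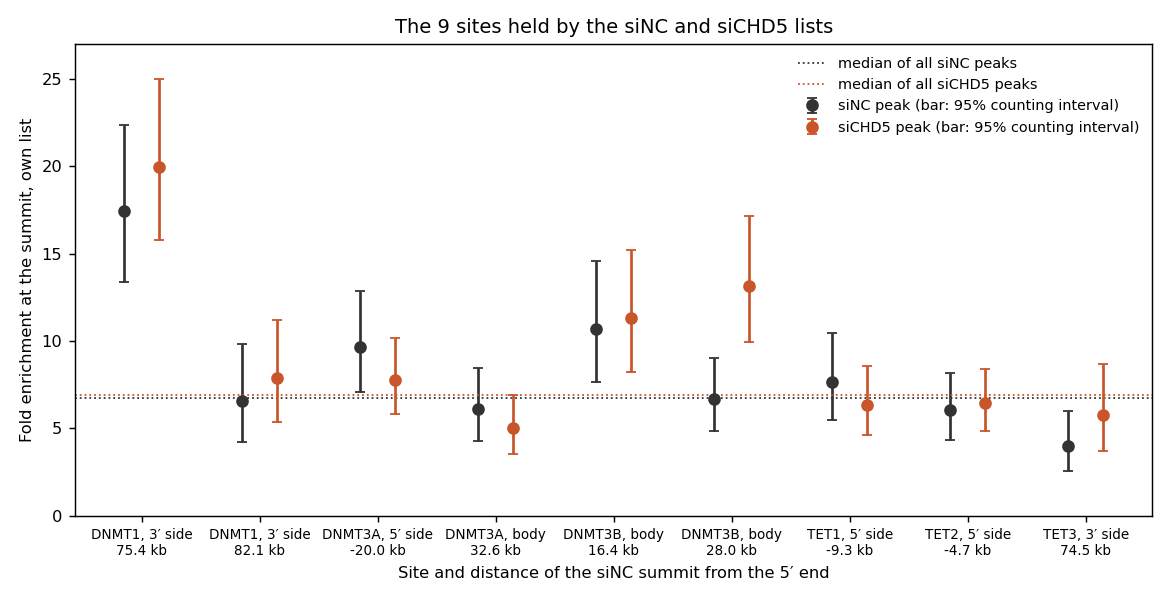
Fold enrichment at the summit (vertical axis, linear from 0) at the 9 sites held by siNC (black) and siCHD5 (orange), labelled by gene, side and distance of the siNC summit from the 5′ end. Bars are 95% counting intervals of the pull-down reads and dotted lines are the medians of all peaks of each list, 6.72 in siNC and 6.90 in siCHD5. The DNMT1 site 75.4 kb from the 5′ end stood highest in both lists, and the DNMT3B site at 28.0 kb was the one whose bars stood apart.

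All siNC members were overlapped by a siCHD5 peak: 9 of 9 (100%, exact Clopper-Pearson 95% interval 66.4 to 100). The background share was 85.4% of all siNC peaks, which would give 7.69 of 9, so full overlap at the 6 genes was near what the whole list showed. Shared peaks overlapped by 219 to 351 bp, and their summits lay between 1 and 81 bp apart with a median of 12 bp. In the other direction 9 of 12 siCHD5 members (75%, 42.8 to 94.5) overlapped siNC, against 74.5% of all siCHD5 peaks. The 3 siCHD5 members without a siNC partner, at TET1, DNMT3A and DNMT3B, had folds of 2.76, 5.88 and 3.23. Over the whole siCHD5 list the median fold was 4.47 for peaks without a siNC partner and 7.92 for those with one.

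None of the 9 siNC members was overlapped by siCHD3, siCHD4, siMBD2 or siMBD3 (0 of 9 each, interval 0 to 33.6%). Over all siNC peaks the shares were 0.179%, 0.169%, 0.250% and 0.176%. At those shares 0.0152 to 0.0225 of the 9 would be overlapped, so a count of 0 is close to the background and was not read as a result about the 6 genes. The same held for the 12 siCHD5 members (0 of 12 each, 0 to 26.5%), with shares of 0.195%, 0.186%, 0.296% and 0.223% over all siCHD5 peaks. The siNC peaks that siCHD3, siCHD4, siMBD2 or siMBD3 did overlap had median folds of 1.39 to 1.61. The siNC members had folds of 3.99 to 17.4, so the siNC shares rest mostly on weaker peaks than the members. At the siNC share of 0.0316% of peaks near the 6 genes, the 110 to 358 peaks of the short lists would place 0.0348 to 0.113 peaks there. A peak list shows only signal past the caller's threshold, so TET1 signal under it at these genes was not analysed here.

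The nearest peaks of the short lists were far from most of the genes. Each short list holds only 110 to 358 peaks and distances at other genes were not computed, so these were not read as a result about the 6 genes. siMBD2 came closest, with a 4.10-fold peak at chr2:74619067-74619277, 284 kb from the TET3 body, where siNC and siCHD5 had peaks too. It also had a 6.64-fold peak at chr20:30697348-30697557, 652 kb from DNMT3B. siMBD3 had a 3.81-fold peak at chr2:26256339-26256570, 691 kb from DNMT3A. For DNMT1 the nearest short-list peaks were those of siCHD4 and siMBD3, 2.73 Mb away. siCHD3 had no peak closer than 17.4 Mb to any of the genes, and neither siCHD3 nor siCHD4 had a peak on chromosome 20.

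**Figure D3:**
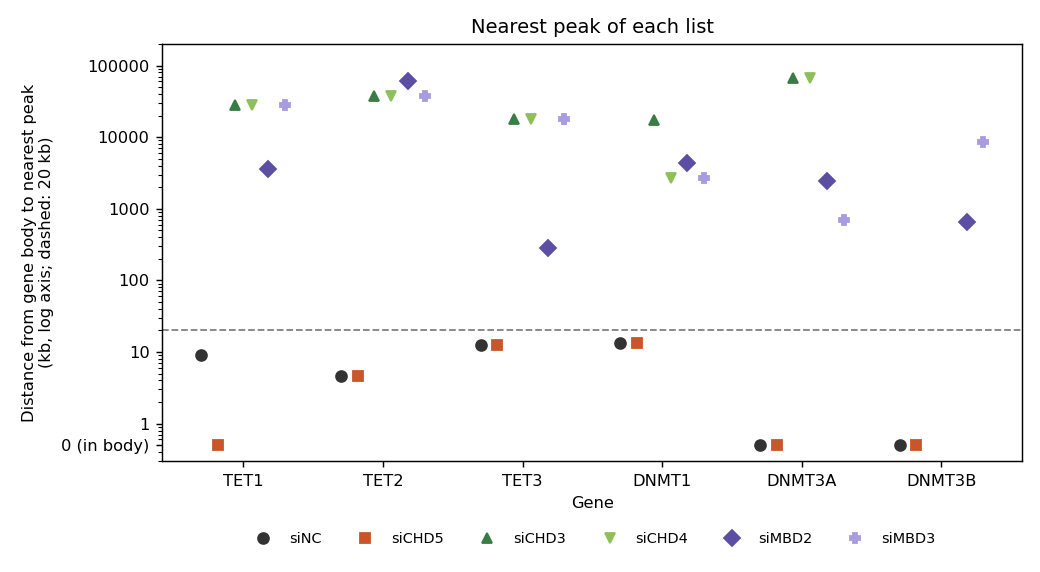
Distance in kb from each gene body to the nearest peak of each of the 6 lists (vertical axis, logarithmic, with peaks inside the body drawn at the bottom tick), by gene along the horizontal axis. The siNC and siCHD5 points lay under the dashed 20 kb line at every gene, and all points of the other 4 lists lay at 284 kb or more; siCHD3 and siCHD4 have no point at DNMT3B.

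Peak density over the windows was close to that of the chromosomes they lie on. The 6 windows total 788 kb and held 1.14 siNC peaks per 100 kb, and at the density of each chromosome they would hold 8.11 siNC peaks in place of the 9 observed. For siCHD5 the numbers were 12 observed and 9.37 at chromosome density. Bodies and flanks divided differently. The 548 kb of gene bodies held 3 siNC peaks against 5.54 at chromosome density, and the 240 kb of flanks held 6 against 2.57. In siCHD5 the bodies held 4 against 6.39 and the flanks 8 against 2.98. The TET bodies alone, 330 kb, held 0 siNC peaks and 1 siCHD5 peak, against 2.99 and 3.41 at chromosome density. The DNMT bodies, 218 kb, held 3 in each list, against 2.55 and 2.98. These small counts were not tested, and flanks of 20 kb can hold neighbouring genes. The flank counts include the outer DNMT1 site and the 5′ DNMT3A site, whose peaks reached into the window by only 29 to 293 bp.

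The bodies of TET1, TET2, TET3 and DNMT1 thus lay in stretches without a siNC peak. The stretch over TET2 was the longest, 356 kb (chr4:106062414-106418163), and that over TET1 measured 346 kb (chr10:70310912-70657263). The stretch over TET3 was 199 kb and that over DNMT1 was 99.6 kb. The median gap between neighbouring siNC intervals on the chromosomes was 48.1 kb, and the share of gaps at least as long was 5.27% for TET2, 5.52% for TET1, 13.1% for TET3 and 29.3% for DNMT1. A body without a peak sets a minimum for its stretch, so long genes such as TET1 and TET2 (134 kb each) can only appear here with long ones. Each gap was counted once whatever its length, so these shares are not the share of the genome lying in such gaps. In siCHD5 the weak peak in the TET1 body interrupted that stretch, while those over TET2, TET3 and DNMT1 measured 330 kb, 199 kb and 99.6 kb.

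The edge of the window decided a few members. Just inside it were the outer DNMT1 site and the 5′ DNMT3A site, whose peaks reached in by 29 to 293 bp. Just outside it, 4.38 kb beyond the bound on the 5′ side of DNMT1, were peaks of 6.29-fold in siNC and 6.83-fold in siCHD5. Beyond TET3, at 11.2 and 11.1 kb outside, stood peaks of 8.29-fold in siNC and 11.04-fold in siCHD5. On the 3′ side of DNMT3A, 16.3 kb outside, siNC had an 18.7-fold peak at chr2:25419296-25419668, stronger than any siNC member, and siCHD5 had an 11.2-fold peak there.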

How the data were processed

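TET1 ChIP-seq of HEK293T was represented by 6 peak lists, 1 per siRNA, taken as called on replicates 1 to 3 together because the file names carry all 3. Per the submitters' processing notes, the build was hg19 and the tools included MACS2 2.1.2 and Bowtie2 2.3.4 beside FastQC 0.11.7, deepTools 3.5.0, bedtools 2.25.0 and SAMtools 1.9, with no roles. Their settings are not given in the sources used here. Each deposited peak carries the authors' fold (a ratio), −log10 p, −log10 q and a score made from the −log10 q. Coordinates were read as hg19 and counted from 1.

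Gene bodies on hg19, given to 1 kb, were extended by 20 kb, and every peak sharing at least 1 bp was a member. Strand came from RefSeq (GRCh38.p14). The members and the windows were chosen with earlier results of these data known. All 6 genes and every member peak were named by rule. Peaks of different lists overlapped at 1 bp or more. Pull-down reads and control background were recovered from the deposited fold and −log10 p (pseudocount 1, tolerance 0.02), and exact Poisson intervals were put on the reads. Shares have exact Clopper-Pearson 95% intervals. Intervals cover counting error only. No test was made, since each group has 1 list. Read totals were not analysed here, so precision rests on 16 to 75 reads per summit. Alternatives were another overlap, threshold, window, 5′ distance and the count of distinct intervals. In a check of the overlap code on simulated lists, 71 of 71 planted overlaps were found among 358 peaks. Planted peaks were slightly shifted siNC peaks and the rest lay on a made-up chromosome, so this says nothing of the real lists. Python 3.11.15, numpy 2.4.6, scipy 1.17.1 and pandas 2.3.3 were used.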

Additional observations from a re-analysis of the deposited data

How the results depend on the processing

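Of 84 recomputed values, 78 stayed within 1.5 times the reported count or inside the reported interval. Most of the 78 were values of 0 for siCHD3, siCHD4, siMBD2 and siMBD3, which a stricter setting could not have changed. The 6 that moved followed from a wider or narrower distance. With the gene bodies alone, siNC held 3 peaks and siCHD5 held 4. With windows of 50 kb they held 14 and 19. Within 5 kb of the 5′ ends each list had 1 peak, the site upstream of TET2. The siNC peaks that each of the 7 alternatives counted all had a siCHD5 partner, 3 of 3 in the gene bodies alone, 8 of 8 at a fold of at least 4, 14 of 14 in windows of 50 kb and 9 of 9 in the remaining ones, and the share of siCHD5 members with a siNC partner ran from 73.7% (windows of 50 kb) to 90% (−log10 q of at least 5). siCHD3, siCHD4, siMBD2 and siMBD3 stayed at 0 peaks under all of them, windows of 50 kb included. No paired analysis was possible because each siRNA has 1 list for its replicates together, and for the same reason no replicate could be left out. With only 9 and 12 members, the intervals of the shares are wide, down to 66.4% for 9 of 9.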
